A study of Mus musculus with 6 samples.

Results

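Megakaryocyte and platelet genes were examined in RNA sequencing of mouse femurs. They were 9 genes of 54532 in the table of gene values, taken by exact match of the gene name: Pf4, Ppbp, Itga2b, Gp9, Gp1ba, Gp1bb, Gp6, Treml1 and Clec1b. The labels give 6 samples in 2 groups of 3, zingerone (Zin), a phenolic compound of ginger given orally each day for 8 weeks at 100 mg/kg, and OVX, the usual abbreviation for ovariectomy, given saline. All 6 carry the genotype label WT, and strain and age are not given. Only the 3 OVX libraries could be tied to their labels, so zingerone libraries were not analysed here and no effect of zingerone was tested. The OVX libraries are called library 1, 2 and 3 after their replicate numbers. Treatment is labelled as 8 weeks for all 6 samples, whereas the OVX titles name 8, 9 and 10 weeks, and the labels do not resolve this. A difference between libraries and a difference between those title weeks cannot be told apart.

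The labels also name RAW264.7, a mouse macrophage-like line, as the cell line and osteoclast precursors as the cell type, whereas the extraction text speaks of powdered femur. Markers of several tissues of a femur were present in every library. Summed over the listed genes, the erythroid list reached 43364, 48410 and 55601 FPKM in libraries 1, 2 and 3, the osteoblast list 1366, 3011 and 836 FPKM, and the skeletal muscle list 1263, 103 and 816 FPKM. FPKM is the number of fragments scaled to gene length and to the library's total. Reads recovered from FPKM over all listed genes came to 17017907, 16964740 and 16581579 in libraries 1, 2 and 3, and shares of reads refer to these. The 14011 genes that averaged 1 FPKM or more were tested.

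Megakaryocytes are the large polyploid marrow cells that shed platelets into the sinusoids. They are specified by GATA and ETS family transcription factors. Platelets carry their RNA and proteins over from the megakaryocyte, so the same transcripts mark both, and in whole femur they can come from marrow megakaryocytes or from platelets in blood. The 9 genes encode 2 chemokines of the platelet alpha granule (Ppbp and Pf4), 3 subunits of the receptor for von Willebrand factor (Gp1ba, Gp1bb and Gp9), the integrin chain alpha-IIb of the fibrinogen receptor (Itga2b), the collagen receptor GPVI (Gp6), the podoplanin receptor CLEC-2 (Clec1b) and the granule membrane receptor TLT-1 (Treml1).

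Promoters are shown for 5 members as examples of the motifs counted over all 9, namely the chemokine genes, the tested GPIb-IX subunits and the integrin chain. Each runs from 250 bases before to 50 bases after the gene start in RefSeq, build GRCm38.p6, and is written 5′ to 3′ on the gene's strand. Capitals mark GATA and ETS motifs on either strand. The GATA motif searched was the letters GATA with A or T before them and A or G after them. The ETS motif searched was either the letters AGGAAG or, shifted by one base, the letters GGAAGT.
Ppbp, chr5:90768268-90768567, plus strand: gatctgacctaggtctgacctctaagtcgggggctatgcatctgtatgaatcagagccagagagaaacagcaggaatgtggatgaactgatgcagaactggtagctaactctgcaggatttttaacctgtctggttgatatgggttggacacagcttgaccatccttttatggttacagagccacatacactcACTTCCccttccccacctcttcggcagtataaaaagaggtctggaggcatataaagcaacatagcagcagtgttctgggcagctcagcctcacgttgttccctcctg
Pf4, chr5:90772185-90772484, plus strand: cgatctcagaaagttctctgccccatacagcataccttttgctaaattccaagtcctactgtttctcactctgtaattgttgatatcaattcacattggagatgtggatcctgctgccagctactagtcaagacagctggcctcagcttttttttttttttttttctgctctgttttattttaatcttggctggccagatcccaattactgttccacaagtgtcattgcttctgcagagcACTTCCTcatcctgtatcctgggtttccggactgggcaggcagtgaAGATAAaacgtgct
Gp1ba, chr11:70638872-70639171, plus strand: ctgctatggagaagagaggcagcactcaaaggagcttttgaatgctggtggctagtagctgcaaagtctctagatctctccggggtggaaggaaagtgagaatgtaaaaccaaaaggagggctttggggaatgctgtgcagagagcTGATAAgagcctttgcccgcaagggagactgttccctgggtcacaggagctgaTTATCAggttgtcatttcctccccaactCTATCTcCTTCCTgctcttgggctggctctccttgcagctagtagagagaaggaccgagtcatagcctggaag
Gp9, chr6:87777820-87778119, plus strand: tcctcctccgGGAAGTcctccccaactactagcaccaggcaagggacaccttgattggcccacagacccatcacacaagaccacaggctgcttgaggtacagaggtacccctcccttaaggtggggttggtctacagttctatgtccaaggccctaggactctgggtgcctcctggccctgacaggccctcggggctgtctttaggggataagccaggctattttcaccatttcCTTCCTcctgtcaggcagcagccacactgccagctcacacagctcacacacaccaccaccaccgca
Itga2b, chr11:102469834-102470133, minus strand: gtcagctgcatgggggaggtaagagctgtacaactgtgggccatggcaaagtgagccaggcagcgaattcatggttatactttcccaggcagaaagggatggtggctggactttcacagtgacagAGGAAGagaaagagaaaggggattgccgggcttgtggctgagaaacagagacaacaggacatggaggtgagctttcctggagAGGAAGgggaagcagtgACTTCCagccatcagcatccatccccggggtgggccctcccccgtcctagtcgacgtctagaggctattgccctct

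A GATA motif occurred in 5 of the 9 member promoters, and in 29.6% of 32544 mouse promoters of the same length. An ETS motif occurred in 7 of 9, against 45.7% of all promoters, and both kinds in 4 of 9, against 13.2%. The Gp1ba promoter held 3 GATA motifs within the 104 bases before its start and 1 ETS motif. The window of Itga2b held 3 ETS motifs and no match to the GATA motif searched. That window runs from 102469834 to 102470133, whereas Itga2b as listed, on the minus strand, reaches 102470122. Its RefSeq start and most of its window thus lie inside the listed gene. The Ppbp promoter held 1 ETS motif 57 bases before the start and no match to the GATA motif searched. The Pf4 promoter held 1 ETS site that begins 10 bases before the start, where both forms overlap, and 1 GATA motif that begins 37 bases after it. The Gp9 promoter held 2 ETS motifs, at 240 and 16 bases before the start. The Treml1 promoter held neither. These are matches of letters in a window, and overlapping matches of the ETS forms were counted as 1 site.

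The chemokine genes carried most of the signal. Ppbp, which encodes pro-platelet basic protein, the precursor of CXCL7, lies on mm10 chromosome 5 from 90768518 to 90770063, and Pf4, which encodes platelet factor 4 (CXCL4), lies beside it from 90772435 to 90773383, both on the plus strand. In libraries 1, 2 and 3 the level of Ppbp was 875, 558 and 910 FPKM, on 16381, 10183 and 16300 reads. That of Pf4 was 428, 301 and 442 FPKM, on 5333, 3654 and 5272 reads. Library 2 was the lowest for both genes, while libraries 1 and 3 lay close together. By mean FPKM, Ppbp ranked 37 and Pf4 88 of all 54532 genes listed. Within a library Ppbp was 2.04, 1.86 and 2.06 times as high as Pf4 in libraries 1, 2 and 3. The pair made up 83.6%, 83.9% and 83.6% of the summed FPKM of the 9 genes.

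The receptor for von Willebrand factor, through which platelets first stick to an injured vessel, is built from GPIb-alpha, GPIb-beta, GPIX and GPV. Gp9 encodes GPIX and lies on the plus strand of chromosome 6 from 87778072 to 87779768. Its level was 87.1, 60.2 and 87.9 FPKM in libraries 1, 2 and 3. Gp1ba encodes the ligand-binding chain GPIb-alpha and lies on the plus strand of chromosome 11 from 70639122 to 70642036. Its level was 22.4, 14.4 and 26.2 FPKM. Gp5, which is no member and encodes GPV, had 51.2, 32.2 and 51.1 FPKM. All 3 genes were lowest in library 2. Per length, Gp9 was 3.81 ± 0.412 times as high as Gp1ba and 1.76 ± 0.0910 times as high as Gp5 within a library (SD, n = 3).

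Gp1bb, which encodes GPIb-beta, the remaining subunit, was nearly without reads. It had 8 reads in library 1 (0.222 FPKM) and 0 reads in libraries 2 and 3, where finding 0 reads allows for as many as 3, equal to 0.0853 and 0.0869 FPKM. Gp1bb (chromosome 16, 18620317 to 18622403, minus strand) shares 91.1% of its 2087 exonic bases with Sept5, a septin gene on the same strand, and 41.5% with Gm49601 in GENCODE M21. Sept5 had 245, 247 and 231 reads in libraries 1, 2 and 3, or 3.62, 3.75 and 3.57 FPKM. The sources used here do not say how reads in shared exons were counted, so the level of Gp1bb is uncertain. Gp1bb was not among the genes tested.

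Itga2b encodes the alpha-IIb chain, which pairs with the beta-3 chain of Itgb3 to bind fibrinogen. It lies on the minus strand of chromosome 11 from 102453297 to 102470122. The level of Itga2b was 66.2, 42.0 and 66.1 FPKM in libraries 1, 2 and 3, on 6235, 3858 and 5962 reads. Libraries 1 and 3 were nearly equal and library 2 was lower. Itgb3 had 97.2, 71.8 and 109 FPKM, and was 1.61 ± 0.127 times as high as Itga2b within a library (SD, n = 3). Other cells, among them osteoclasts, also use the beta-3 chain.

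Gp6, Clec1b and Treml1 were also lowest in library 2. Gp6, the collagen receptor, lies on the minus strand of chromosome 7 from 4363965 to 4397744, and its level was 10.2, 6.83 and 11.0 FPKM in libraries 1, 2 and 3. Clec1b, the receptor for podoplanin, lies on the plus strand of chromosome 6 from 129397297 to 129409335, and its level was 13.2, 9.24 and 12.8 FPKM. Treml1, stored in the alpha granule and moved to the surface on activation, lies on the plus strand of chromosome 17 from 48359916 to 48367176, and its level was 57.1, 32.7 and 60.8 FPKM. For Treml1 the highest library was 1.86 times the lowest, the widest range among the tested members. Fcer1g, the signalling chain that GPVI needs, had 221, 210 and 211 FPKM, and is also made by myeloid cells.

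By mean FPKM over the 3 libraries (SD, n = 3), the order was Ppbp at 781 ± 194, Pf4 at 390.4 ± 77.9, Gp9 at 78.4 ± 15.8, Itga2b at 58.1 ± 13.9, Treml1 at 50.2 ± 15.2, Gp1ba at 20.99 ± 5.99, Clec1b at 11.8 ± 2.21, Gp6 at 9.37 ± 2.23 and Gp1bb at 0.0739 ± 0.128 FPKM. The ranges of Gp9 and Itga2b, of Itga2b and Treml1, and of Clec1b and Gp6 overlapped between libraries. All libraries measure both genes of a pair, and within a library the order held in 3 of 3 cases for each of them. The within-library difference averaged 20.3 ± 1.88 FPKM for Gp9 over Itga2b, 7.89 ± 2.22 FPKM for Itga2b over Treml1 and 2.40 ± 0.595 FPKM for Clec1b over Gp6 (SD, n = 3). The order also depends on the length assigned to a gene. The table lists 5103 bases for Clec1b, the union of all its annotated exons, while its longest protein-coding transcript has 1090 bases, and the listed 5454 bases of Itga2b compare with 3437. Per kilobase of the longest protein-coding transcript, Clec1b averaged 55.1 ± 10.3, near Treml1 at 57.0 ± 17.3, and Itga2b averaged 92.2 ± 22.1, above Gp9 at 78.4 ± 15.8 (SD, n = 3). Of the exonic bases of Clec1b, 3.61% are shared with Clec9a.

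**Figure D1:**
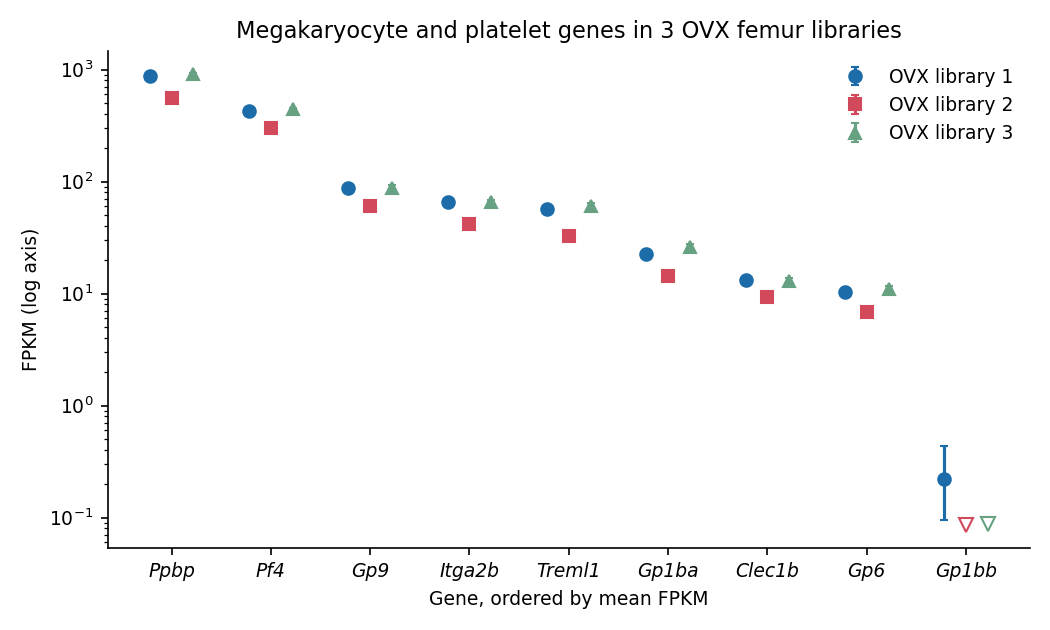
FPKM of the 9 genes on a log axis in the 3 OVX libraries, ordered by mean; points are single libraries, bars exact Poisson 95% intervals (counting error only, most smaller than the points), and open triangles the limit of 3 reads where a gene had 0. For the 8 genes from Ppbp to Gp6 the square of library 2 sits below the other points, while Gp1bb is near the floor.

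All 8 members tested differed between the 3 OVX libraries beyond counting noise, against 38.7% of the 14011 genes tested (Benjamini-Hochberg adjusted p below 0.05 in a chi-square test of reads). The adjusted p was 2.31e-16 for Clec1b, the largest of the 8, and 9.48e-141 for Itga2b. More reads make a call more likely, and the test compares libraries, not conditions. All 8 were lowest in library 2, as were 36.8% of tested genes, and none was lowest in library 1 or 3, where 32.5% and 30.6% of tested genes were. Of all tested genes 16.5% were both called and lowest in library 2, against 10.8% for library 1 and 11.3% for library 3. The highest library was 1.43 (Clec1b) to 1.86 (Treml1) times the lowest, and at least 1.5-fold for 5 of the 8, namely Ppbp, Gp1ba, Itga2b, Gp6 and Treml1, against 17.9% of tested genes, or 6.42% that were also lowest in library 2. The median tested gene had a ratio of 1.15. Without library 2, only Gp1ba was called between libraries 3 and 1 (adjusted p = 0.00938, chi-square test), against 18.2% of tested genes. The other tested members had adjusted p from 0.188 to 0.905.

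The 9 genes together took 0.199% of reads in library 1, 0.127% in library 2 and 0.202% in library 3, with exact Clopper-Pearson 95% intervals from 0.197% to 0.202%, 0.125% to 0.128% and 0.200% to 0.205%. In whole bone, fewer megakaryocytes or platelets and less of these RNAs per cell cannot be told apart. The series' design text calls the libraries biological replicates. The labels do not name separate animals, so the spread between these libraries, which the p-values set against counting noise, may be technical.

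The 8 members moved by similar factors. In library 2 over library 1 the ratio of FPKM ran from 0.573 for Treml1 to 0.703 for Pf4, with a median of 0.656, while the median of all tested genes was 0.997. The 5th percentile of all tested genes was 0.634, and of the members only Treml1 lay below it. In library 2 over library 3 the ratio ran from 0.538 for Treml1 to 0.720 for Clec1b, with a median of 0.627, and that of all tested genes was 0.997. Here the 5th percentile was 0.654, with Pf4, Gp9 and Clec1b above it and the other tested members below. In library 3 over library 1 the ratio ran from 0.969 for Clec1b to 1.17 for Gp1ba, with a median of 1.04 against 1.001 for all tested genes. The differences among members were larger than counting error for some pairs. Treml1 in library 2 over library 1 had an exact 95% interval from 0.524 to 0.627, below that of Pf4, from 0.674 to 0.733. Ppbp, with an interval from 0.622 to 0.654, also lay below Pf4. Gp1ba had the interval from 1.08 to 1.27 in library 3 over library 1, and that of Itga2b ran from 0.964 to 1.04. The interval of Ppbp for this pair, from 1.02 to 1.06, also lay above 1, although Ppbp was not called (adjusted p = 0.188, chi-square test). The intervals use the totals behind FPKM, whereas the test uses the reads listed.

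**Figure D2:**
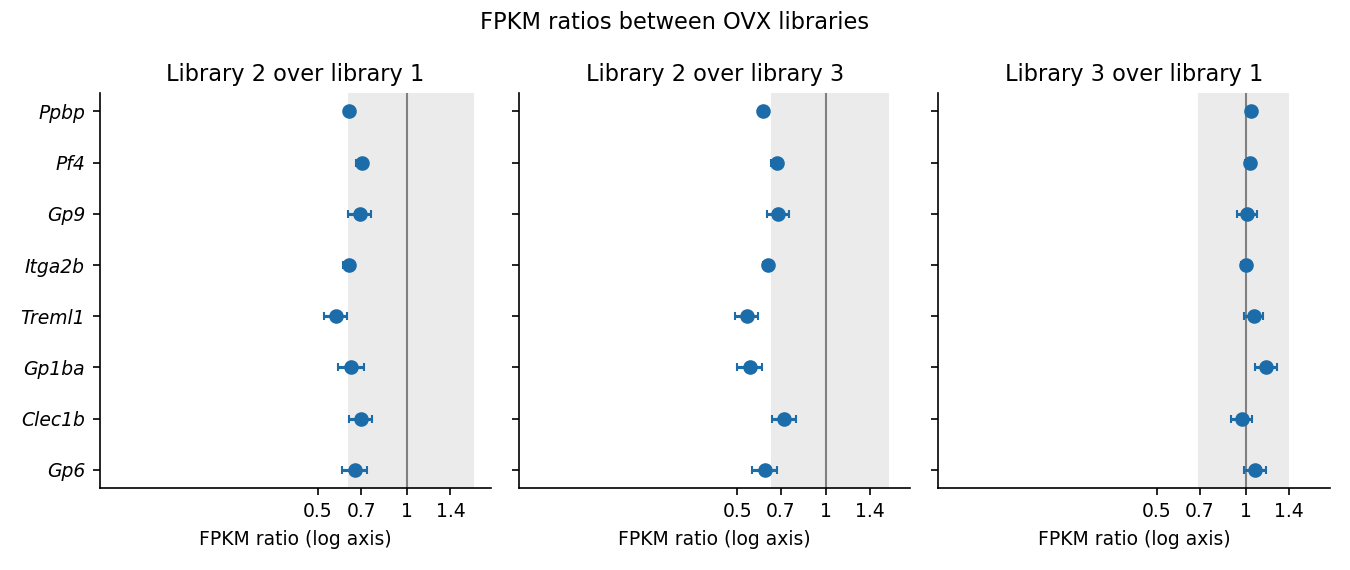
Ratios of FPKM between OVX libraries (log axes) for the 8 tested genes, with exact 95% intervals of the read ratio; the grey line is the median and the grey band the 5th to 95th percentile of all tested genes. Both panels with library 2 on top place every gene left of 1, from 0.538 to 0.720 over library 3, whereas library 3 over library 1 centres on 1.04. In library 2 over library 1 only Treml1 lies outside the band.

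Related genes of the lineage followed the members in part. A list of 57 megakaryocyte and platelet genes that are no members had 56 tested genes, of which 50 differed between libraries, and 47 were lowest in library 2, 43 of them called. Of all tested genes 38.7% were called, 36.8% were lowest in library 2 and 16.5% were both. The median ratio of the list was 0.868 in library 2 over library 1 and 0.876 over library 3, nearer to 1 than for the members. Library 2 stood at or below 0.75 times each other library for 14 of the 56 and for 8 of 8 members, against 5.3% of all tested genes. The same held for library 1 in 1 and for library 3 in 2 of the 56 related genes, against 3.49% and 3.24% of all tested genes. The 0.75 ratio was chosen after seeing the data and lies above the largest member ratio of library 2, 0.720. The 8 of 8 is therefore a description only.

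Thpo, which encodes the cytokine thrombopoietin and is expressed mainly in the liver, had only 10, 3 and 5 reads in libraries 1, 2 and 3 and was not tested. Among the 11 adhesion receptors and ligands, 9 were called and lowest in library 2, against 16.5% of all tested genes. Mpig6b, an inhibitory receptor of platelets, had 17.4, 10.4 and 17.1 FPKM in libraries 1, 2 and 3, and Cd226, an adhesion receptor of platelets and lymphocytes, had 15.6, 9.70 and 16.6 FPKM. Vwf, which encodes von Willebrand factor of endothelium and platelets, had 14.2, 9.40 and 14.6 FPKM. Itgb1, the widely expressed beta-1 chain, had 77.8, 83.7 and 81.4 FPKM and was not called. Pdpn, which encodes podoplanin, the ligand of CLEC-2 that platelets do not make, had 1.59, 2.55 and 0.865 FPKM, highest in library 2.

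Of the 8 agonist receptors and channels, all were lowest in library 2, against 36.8% of all tested genes, and 5 were called, against 38.7%. F2rl2, the thrombin-binding cofactor receptor of mouse platelets, had 32.7, 19.3 and 31.1 FPKM in libraries 1, 2 and 3, and F2rl3, their thrombin-signalling receptor, had 13.1, 9.82 and 14.3 FPKM. The ADP receptor gene P2ry12 had 4.36, 3.66 and 4.82 FPKM and was not called (adjusted p = 0.0672, chi-square test). All 3 eicosanoid enzymes were called and lowest in library 2, against 16.5% of all tested genes, with the platelet lipoxygenase Alox12 at 43.9, 27.1 and 44.4 FPKM. The same held for all 7 cytoskeletal genes. Tubb1, the beta-1 tubulin of the platelet marginal band, had 117, 74.4 and 129 FPKM, whereas Tln1, the integrin activator talin that many cells make, had 108, 102 and 109 FPKM. Among granule formation genes, Rab27b, needed for dense granules, had 8.78, 5.70 and 9.44 FPKM, and Nbeal2, needed for alpha granules, had 23.5, 20.8 and 20.9 FPKM.

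Transcription factors of the lineage had ratios nearer to 1. Of 10, 8 were called and lowest in library 2, against 16.5% of all tested genes, with a median ratio of 0.902 in library 2 over library 1 and 0.899 over library 3. Gata1, the zinc finger factor that erythroid cells share, had 46.7, 40.3 and 50.9 FPKM in libraries 1, 2 and 3. Fli1, an ETS factor also active in endothelium and lymphocytes, had 26.1, 22.8 and 25.7 FPKM, and Nfe2, required for platelet release in mice, had 79.3, 77.5 and 83.6 FPKM. Runx1 had 7.78, 8.39 and 7.87 FPKM and Meis1 had 1.27, 1.13 and 1.24 FPKM, and neither was called. The difference between the ratios of these factors and of the members was not tested.

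Of the 9 genes for granule contents, all were called, against 38.7% of all tested genes. The lowest level was in library 2 for 4, in library 1 for 3 and in library 3 for 2, against 36.8%, 32.5% and 30.6% of all tested genes. Mmrn1, the factor V binding protein multimerin of platelets and endothelium, had 16.3, 10.2 and 17.4 FPKM in libraries 1, 2 and 3, a profile like that of the members. Sparc, a platelet alpha granule protein that is also a main matrix protein of bone, had 447, 1267 and 286 FPKM, highest in library 2. Serpine2, a protease inhibitor, had 21.9, 44.9 and 36.1 FPKM, and Pdgfa, a growth factor chain, had 3.77, 5.37 and 3.70 FPKM.

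**Figure D3:**
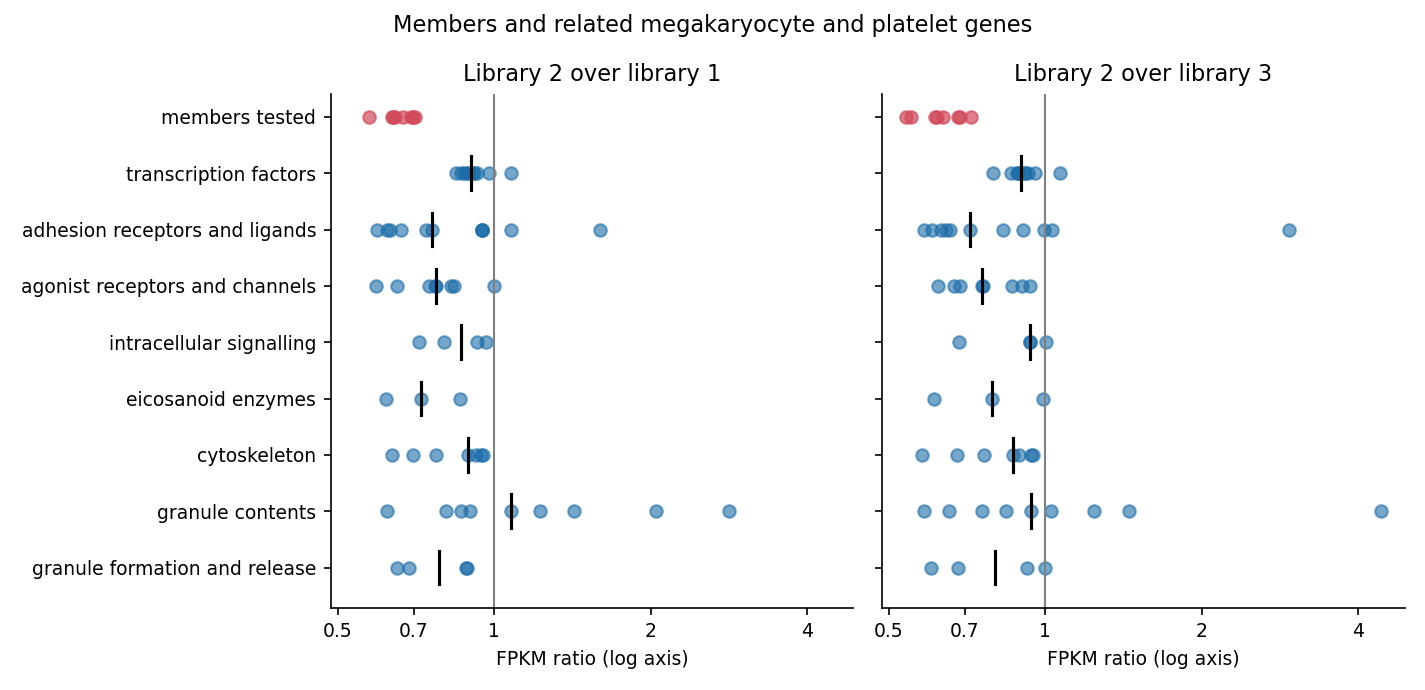
Ratio of FPKM in library 2 over library 1 (left) and over library 3 (right), log axes, for the 8 tested members (red) and 56 tested related genes by role (blue), with the median of each related role as a black bar. Members lie between 0.538 and 0.720, transcription factors centre on 0.902 and 0.899, and Sparc among the granule contents reaches 4.43.

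Other cell types also differed between the libraries. All 8 skeletal muscle markers were called and lowest in library 2, against 16.5% of all tested genes. None of these markers was at 0 there, and their summed FPKM was 1263, 103 and 816 in libraries 1, 2 and 3. All 8 chondrocyte markers were highest in library 2, at a summed 24.8, 561 and 54.0 FPKM, and so were all 8 osteoblast markers. Both lists were called in full, against 38.7% of all tested genes. The share of all tested genes highest in library 2 was not computed. Some chondrocyte markers were near the floor outside library 2. Matn3 had 1 read in library 1 and 1 in library 3, and Col10a1 had 1 read in library 1. Col2a1 alone had 17.1 FPKM in library 1. Of the other marrow lists, the neutrophil sum was 24367, 26558 and 24767 FPKM. Lowest in library 2 were 3 of 10 neutrophil genes and 2 of 9 tested erythroid genes, against 36.8% of all tested genes. These were Elane, Mpo, Prtn3, Klf1 and Epor, all called. Their levels in library 2 were 0.840 (Mpo) to 0.909 (Klf1) times those in library 1. Endothelial markers summed to 75.0, 71.3 and 74.9 FPKM, and mast cell and basophil markers to 126, 167 and 138 FPKM. Of their tested genes, 4 of 8 and 1 of 6 were lowest in library 2, again against 36.8% of all tested genes. With the erythroid or the neutrophil sum as the scale, 8 of 8 members were still called, against 80.0% and 51.3% of tested genes. The part of the muscle, cartilage and bone content in the difference of the members was not tested.

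**Figure D4:**
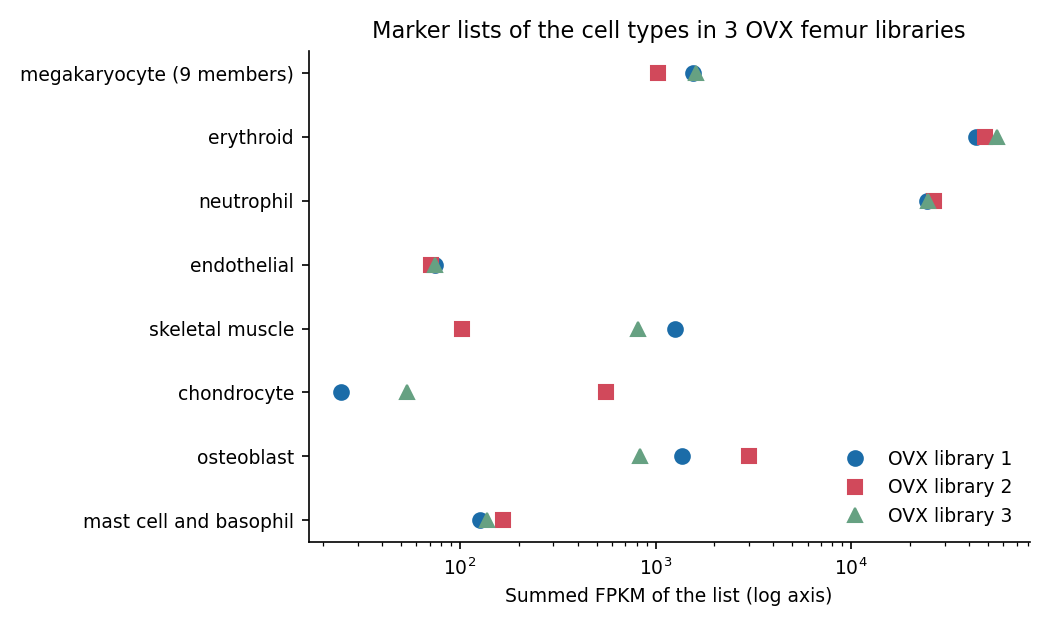
Summed FPKM (log axis) of the 9 members and of 7 marker lists in each OVX library. The members' sum was 1024 FPKM in library 2, against 1560 and 1617 FPKM in libraries 1 and 3. Library 2 also had the lowest muscle sum and the highest cartilage and bone sums.

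Of the 8375 genes on neither list that averaged 5 FPKM or more, the 5 with the profile closest to the members' median over the 3 libraries were Got1, Mrvi1, Rgs18, Gstp3 and Gmpr. Likeness was the root-mean-square difference of log2(FPKM + 1) values centred on each gene's mean, and ran from 0.0102 for Got1 to 0.0274 for Gmpr. Rgs18, a regulator of G protein signalling, had 48.0, 32.9 and 50.3 FPKM in libraries 1, 2 and 3. Mrvi1, a substrate of cGMP-dependent kinase, had 16.6, 10.8 and 17.0 FPKM, and Got1, a cytosolic aminotransferase, had 16.4, 11.0 and 16.8 FPKM. With 3 libraries many genes can share a profile, so this is a description only.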

How the data were processed

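The authors deposited 1 table of FPKM values with 1 length per gene. Trimmomatic, FastQC, STAR and featureCounts, with build mm10, are named in the submitters' processing notes. Their versions, strandedness, annotation and treatment of shared exons were not stated there. The listed gene lengths, in bases, are other values that the authors deposited beside them.

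Columns were used if they carried the library name of 1 labelled sample, as those of the 3 OVX libraries did. The names of 3 further columns of values matched no label. They were not used, so the planned limma comparison of zingerone with OVX and its alternatives were not run. FPKM multiplied by length was a whole multiple of 1 step in 100% of values per library (within 0.01 read), which gave the reads. The totals behind FPKM were 1.02, 0.993 and 0.997 times the reads listed, so FPKM ratios and the chi-square test, which uses the reads listed, differ slightly in scale.

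Genes averaging 1 FPKM or more were tested by chi-square, their reads against the libraries' totals, at a threshold of 0.05 after Benjamini-Hochberg adjustment. The test was tested on simulated data. Genes were named by role, all 9 members and related genes, with the 5 genes of nearest profile. The members and lists were chosen with earlier results of these data known. The 0.75 ratio, 1.5-fold, motif letters and transcript lengths were chosen after seeing the data. Intervals and floors (3 reads, or 1.76e-05% to 1.81e-05% of reads) cover counting error only. Of 54532 identifiers, 54495 were in GENCODE M21 and 53585, the 9 members among them, had unchanged coordinates. All 9 matched the RefSeq promoter table, and Sept5 was matched by identifier because the table lists it under a date-like name. Ahsp of the erythroid list had no row of that name, and 1 gene of the related list is not reported here. The software was scipy 1.17.1, numpy 2.4.6 and pandas 2.3.3 in Python 3.11.15, with plots by matplotlib 3.10.9.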

Additional observations from a re-analysis of the deposited data

How the results depend on the processing

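The 8 tested members were all called with a mean of at least 5 FPKM (44.9% of all genes tested) and with median-of-ratios scaling (37.4%). They were also all called with the erythroid (80.0%) or neutrophil sum (51.3%) as the scale, both chosen after seeing the data. With no filter 9 were called, against 22.4% of all genes tested. Gp1bb was among them on 8 reads in all (adjusted p = 0.00294), too few for the chi-square test. With 1 library left out the count ran from 1 to 8, and it was 1 without library 2. Of all genes tested, 25.0%, 18.2% and 29.7% were called without library 1, 2 and 3. Mean FPKM moved by no more than 1 SD for all 9 genes under FPKM from the reads listed and median-of-ratios scaling, and a mean of 3 cannot move further than that when 1 library is left out. With the length of the longest protein-coding transcript the mean was 479 for Pf4, 92.2 for Itga2b and 55.1 for Clec1b. The median log2 difference of the 9 genes, library 2 minus library 1, was -0.53, and -0.63 and -0.50 with pseudocounts of 0.1 and 5. For library 2 minus library 3 it was -0.62, -0.65 and -0.55. No paired analysis was possible because the zingerone libraries were not analysed here. Gp1bb, with 8 reads in all, and Thpo, with 10, 3 and 5 reads in libraries 1, 2 and 3, did not pass the filter and were not tested.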
